A study of Mus musculus with 3 samples.

Results

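The comparison set cultures given Ocn-EV vesicles against cultures given Prx1-EV vesicles, gene by gene. It covered the 11067 of 27179 genes of the deposited table whose mean level over the 3 libraries of the study was at least 50, and it rested on 1 library of each culture. The recipients were bone marrow stromal cells of genotype WT, kept at 3% oxygen and treated for 3 days. Vesicles came from bone marrow plasma of mice 6 months old on the C57BL/6N background, with the plasma of 5 animals (2 male and 3 female) combined into 1 preparation per group. The Ocn-EV donors carried the CAGS-Snorkel transgene and Ocn-Cre, a driver active in mature osteoblasts. The Prx1-EV donors carried CAGS-Snorkel and Prx1-Cre, a driver active in limb mesenchyme and the cells that descend from it. Vesicles of wild-type donors, All-EV, served as the control, and their library is given beside most pairs of levels for reference. Capture on beads with an HA antibody is described for all 3 preparations. The labels do not say how many cultures were combined in a library. With 1 culture library per vesicle preparation, a difference between vesicles and a difference between cultures cannot be told apart, and no p-value is given.

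Extracellular vesicles are membrane-bound particles that carry protein, lipid and RNA from one cell to another. Osteoblasts build bone by secreting type I collagen and then mineralising it. The transcription factors Runx2 and Sp7 (osterix) drive that programme, and alkaline phosphatase (Alpl), bone sialoprotein (Ibsp) and osteocalcin (Bglap) are among its products, osteocalcin being the one of mature cells. Primary cultures of marrow stromal cells often hold macrophages, which adhere to plastic as stromal cells do. Cells at low oxygen stabilise hypoxia-inducible factors, which switch on glycolytic enzymes.

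The Ocn-EV library held 14233978 reads assigned to genes and the Prx1-EV library 17269204, against 15558165 in All-EV. Levels below are the deposited normalised counts. Ratios are log2((Ocn-EV + 1)/(Prx1-EV + 1)), so a positive value is higher with Ocn-EV, and a range in brackets is the 95% counting interval of the ratio of reads, which covers counting error only. Stromal markers such as Prrx1 and Pdgfrb were read in all 3 cultures, as were macrophage genes at high level, so the RNA was not of stromal cells alone. The macrophage list took 1.46% of reads (95% interval 1.46 to 1.47) with Ocn-EV and 1.30% (1.29 to 1.31) with Prx1-EV. With All-EV it took 1.90% (1.89 to 1.91), and Lyz2 held 42.0% of those reads. Markers of red cells and of mast cells and basophils were below the expression filter throughout (0 of 8 measured genes in each list passed it), and 1 of 12 T and NK cell markers passed. In such mixed cultures, fewer cells of a type and less RNA per cell cannot be told apart.

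The cultures differed in a sex-linked transcript. Xist, the RNA that coats the inactive X chromosome of female cells (chrX:103460373-103483233, GRCm38.p6), had 126 with Ocn-EV, 5.23 with Prx1-EV and 320 with All-EV, from 122, 6 and 283 reads. The Ocn-EV level was 24.1 times that of Prx1-EV, the widest ratio of the comparison (log2 4.35 [3.43 to 6.07]). Genes of the Y chromosome were read in all 3 libraries. Ddx3y stood at 1473, 1671 and 1413 with Ocn-EV, Prx1-EV and All-EV, Kdm5d at 538, 584 and 439, Eif2s3y at 897, 949 and 1162, and Uty at 441, 434 and 502. Tsix, which overlaps Xist on the other strand, had 0 reads in each. All 3 libraries thus held RNA of cells with a Y chromosome, and the Xist level differed between the cultures compared. The part that the makeup of the cultures played in the results below was not tested.

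The cultures were alike for most genes. The median log2 ratio was -0.01 with an SD across genes of 0.26, the 5th percentile was -0.36 and the 95th 0.43. At least 2-fold apart were 57 genes, 36 higher with Ocn-EV (0.325% of genes) and 21 higher with Prx1-EV (0.19%). At least 1.5-fold apart were 248 higher with Ocn-EV (2.24%) and 144 higher with Prx1-EV (1.3%). The counting interval lay above equal levels for 1744 genes (15.8%) and below them for 2244 (20.3%). The shares of all genes in this paragraph are the background for the counts of every list below. A counting interval compares these libraries and not the conditions, and with this many reads it separates differences of a few percent in abundant genes. Of the 57 genes past 2-fold, 55 had an interval off equal levels and 40 had one wholly past 1.5-fold. A gene can pass the filter through 1 library alone, so counts over list members at the filter describe those members only.

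The direction of the ratios moved with expression level. In the lowest quintile of mean level (50 to 153) the median was 0.08 and the SD 0.41, and in the highest quintile (above 1416) they were -0.04 and 0.14. The 36 genes higher with Ocn-EV had a median mean level of 78.5 and the 21 higher with Prx1-EV one of 72.2. Among the 36, the All-EV library was below both others for 17, above both for 7 and between them for 12. Among the 21, it was below both for 3, above both for 9 and between them for 9. Genes at the 2-fold border were the mitotic kinase Plk1 (1.01) and the ciliary transport gene Ift81 (1.01) just inside it, and Igfbp5 (0.99) and Susd5 (0.99) just outside. On the other side Fam43a (-1.04) was inside, and the water and glycerol channel Aqp9 (-0.99) was outside.

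**Figure D1:**
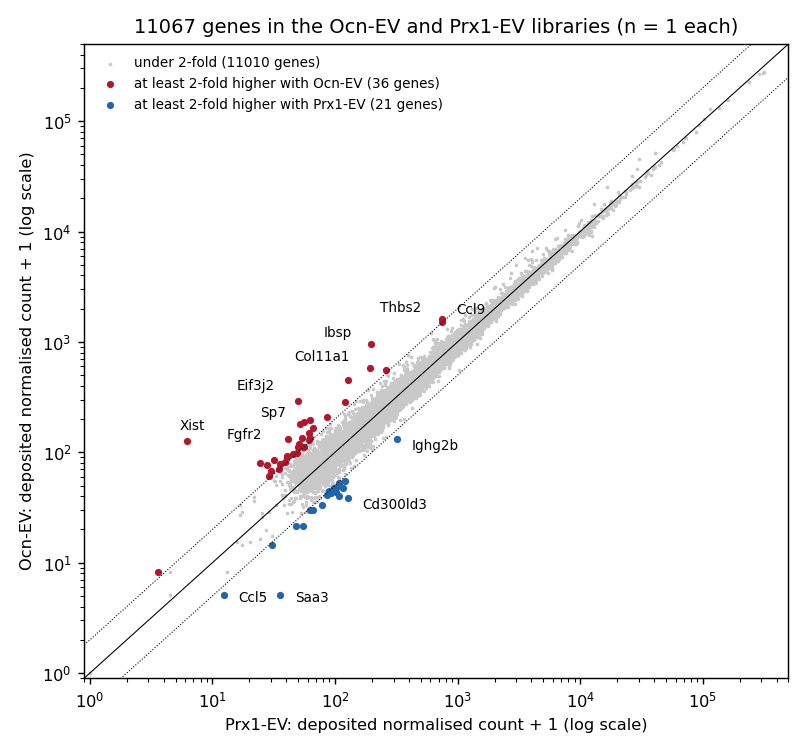
Levels of the 11067 genes in the Prx1-EV library (horizontal axis) and the Ocn-EV library (vertical axis), as deposited normalised counts + 1 on log scales, 1 point per gene. The solid line marks equal levels and the dotted lines 2-fold; red points (36) were higher with Ocn-EV by at least 2-fold, blue points (21) higher with Prx1-EV by at least 2-fold, and most of both lie at low levels.

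Bone-forming genes included several of the widest ratios, all higher with Ocn-EV. Ibsp, a phosphoprotein of bone matrix that seeds mineral (chr5:104299287-104311472, GRCm38.p6), stood at 948 with Ocn-EV, 195 with Prx1-EV and 19.2 with All-EV, from 916, 224 and 17 reads. Its Ocn-EV level was 4.85 times its Prx1-EV level (log2 2.27 [2.07 to 2.50]), next in rank to Xist and Eif3j2. Sp7, the transcription factor that commits cells to bone formation (chr15:102356603-102367035), stood at 179, 50.6 and 13.6 with Ocn-EV, Prx1-EV and All-EV, a 3.54-fold difference between Ocn-EV and Prx1-EV (log2 1.80 [1.39 to 2.28]). For both genes All-EV was the lowest library and Ocn-EV the highest. The parathyroid hormone receptor Pth1r stood at 282, 120 and 36.2 (log2 1.22 [0.93 to 1.53]). Alkaline phosphatase Alpl stood at 764, 393 and 118 (0.96 [0.79 to 1.13]). Tnn, a tenascin of bone-forming tissue, stood at 4250, 2744 and 578 (0.63 [0.56 to 0.70]), and Sparc (osteonectin), a collagen-binding matrix protein, at 8724, 6471 and 2655 (0.43 [0.39 to 0.48]). These 4 kept the order All-EV, Prx1-EV, Ocn-EV.

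Other bone genes were close to level. Runx2, which acts before Sp7 in the lineage, stood at 290 with Ocn-EV, 254 with Prx1-EV and 244 with All-EV (log2 0.19 [-0.05 to 0.43]), an interval that holds equal levels. Osteopontin (Spp1), a phosphoprotein that macrophages make as well as osteoblasts, stood at 16825, 17266 and 96446 (-0.04 [-0.07 to -0.01]), nearly the same in the 2 cultures compared. Its ratio turned to 0.02 once the trend on mean level was removed. The phosphatase Phospho1 (0.25 [-0.07 to 0.56]) and the pyrophosphate-making Enpp1 (-0.14 [-0.29 to 0.01]) had intervals that hold equal levels. Osteocalcin itself (Bglap) was hardly read, with 4 reads for Ocn-EV, 0 for Prx1-EV and 0 for All-EV, where a count of 0 allows up to 3 reads. Of 20 measured genes of bone matrix and mineralisation, 9 passed the filter with a median log2 ratio of 0.43, against -0.01 over all genes. Of those 9, 4 were at least 1.5-fold higher and 0 lower with Ocn-EV. The other 11 did not pass and are not ranked, since most had few reads. Of 11 bone transcription factors, Sp7 and Runx2 passed.

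The 250 bases before the Ibsp start site (RefSeq, GRCm38.p6, chr5:104299037-104299286, plus strand) are shown because this gene had the widest ratio of the bone genes at the filter. Capitals mark the letters ATTGG, the reverse of CCAAT, beginning 54 bases before the start.
Ibsp: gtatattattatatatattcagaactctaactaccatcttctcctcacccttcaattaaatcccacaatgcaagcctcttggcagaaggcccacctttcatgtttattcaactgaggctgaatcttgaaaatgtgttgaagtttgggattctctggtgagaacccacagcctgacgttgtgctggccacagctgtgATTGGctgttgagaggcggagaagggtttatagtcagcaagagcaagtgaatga
The letters CCAAT, searched on both strands, were in the same window of 5 of the 10 bone genes at the filter that had a promoter sequence (50%). They were found for 40.2% of the 8843 genes at the filter with a promoter sequence and for 37.5% of all 27025 such genes. A gene with several start sites counted once if any of its windows had a match. A match describes the letters and not a bound site.

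Collagens and the matrix around them were mostly higher with Ocn-EV. Of 23 collagen genes, 18 passed the filter, with a median log2 ratio of 0.54. Of these, 16 had a ratio above 0, and 7 were higher with Ocn-EV by at least 1.5-fold and 0 at least 1.5-fold lower. The interval lay above equal levels for 15 and below for 1. Col1a1, which forms most of the type I collagen fibre of bone, stood at 44981 with Ocn-EV, 30399 with Prx1-EV and 7861 with All-EV (log2 0.57 [0.54 to 0.59]). Col1a2, its partner chain, stood at 25448, 16630 and 4596 (0.61 [0.59 to 0.64]). Col11a1, a fibril-nucleating chain that controls fibril width, was farthest apart at 575, 192 and 91.7 (1.58 [1.35 to 1.81]). Col1a1 and Col1a2 lay near the list median. Above them were Col15a1 of basement membranes (0.87), Col3a1 of reticular fibres (0.72), the fibril-associated Col12a1 (0.70) and Col5a1 (0.67), which initiates fibrils. Below them were Col5a2 (0.32), another chain of type V, Col8a1 of vessel walls (0.32), Col6a3 of beaded filaments (0.26) and the basement membrane chain Col4a1 (0.20). Col2a1, the collagen of cartilage, stood at 7012, 5950 and 651 (0.24 [0.19 to 0.29]) and was the only one of 14 cartilage markers that passed the filter. Col18a1, the source of endostatin, had the one interval below equal levels, at 585, 777 and 953 (-0.41 [-0.56 to -0.26]). The intervals of Col7a1 of anchoring fibrils (-0.03 [-0.44 to 0.39]) and Col4a2 (0.07 [-0.04 to 0.18]) held equal levels. The collagen genes together took 0.757% of reads (0.752 to 0.761) with Ocn-EV, 0.508% (0.505 to 0.512) with Prx1-EV and 0.130% (0.128 to 0.131) with All-EV.

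Of 27 non-collagen matrix genes, 19 passed the filter with a median of 0.35, and 6 were higher with Ocn-EV by at least 1.5-fold and 0 lower. Thbs2, a matricellular inhibitor of vessel growth, stood at 1599 with Ocn-EV, 743 with Prx1-EV and 493 with All-EV (log2 1.10 [0.98 to 1.23]). The small leucine-rich proteoglycans that bind collagen fibrils were on the same side, with Ogn (osteoglycin) at 0.98 [0.71 to 1.27], Prelp at 0.91 [0.73 to 1.10] and Fmod (fibromodulin) at 0.64 [0.56 to 0.72]. Fbln5, needed for elastic fibres, was at 0.87 [0.60 to 1.16], and Postn (periostin) at 0.65 [0.57 to 0.73]. Matn2 (matrilin) was lower, at 116, 162 and 277 (-0.48 [-0.84 to -0.14]).

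The enzymes that fold, trim and cross-link collagen had a smaller median than the collagens. Of 22 measured, 20 passed with a median of 0.23, 1 was higher with Ocn-EV by at least 1.5-fold, and the interval lay above equal levels for 12 and below for 4. The procollagen C-proteinase Bmp1 stood at 589, 362 and 280 with Ocn-EV, Prx1-EV and All-EV (0.70 [0.52 to 0.89]), and the collagen prolyl isomerase Fkbp10 at 1242, 875 and 355 (0.51 [0.38 to 0.63]). The cross-linking enzyme Loxl4 went the other way, at 69.4, 96.0 and 65.6 (-0.46 [-0.93 to -0.02]). Matrix proteases and their inhibitors had no common side. Of 26, 20 passed with a median of 0.05, and the interval lay above equal levels for 8 and below for 6. Higher with Ocn-EV were the protease inhibitor Serpine2 (0.93), the aggrecanase Adamts5 (0.64) and the gelatinase Mmp2 (0.61). Lower were urokinase Plau (-0.28) and the collagenase Mmp13 (-0.24). Mmp9, the gelatinase of osteoclasts and neutrophils, stood at 39.3 with Ocn-EV, 52.3 with Prx1-EV and 2865 with All-EV (-0.40 [-1.04 to 0.20]), which is not separable at this depth.

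**Figure D2:**
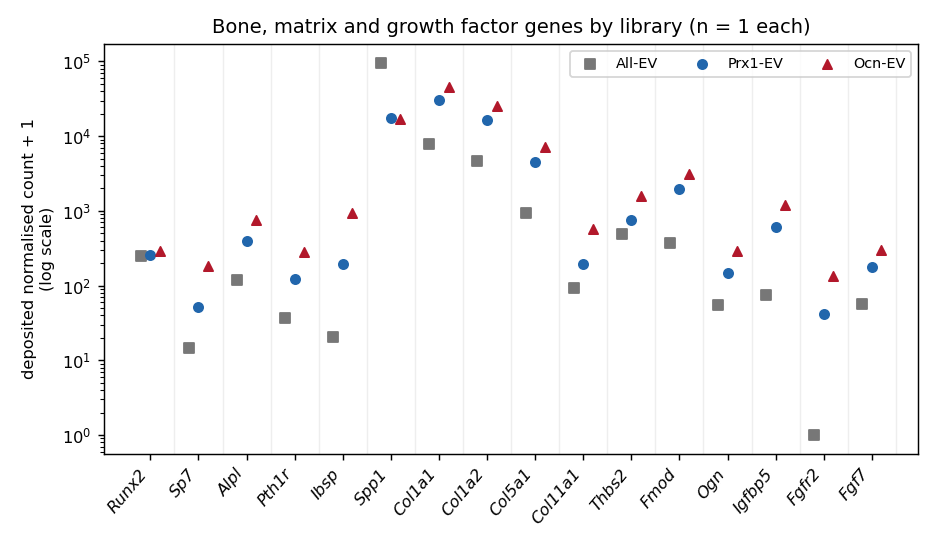
Level of 16 bone, matrix and growth factor genes in each library (n = 1), as deposited normalised count + 1 on a log scale, with grey squares for All-EV, blue circles for Prx1-EV and red triangles for Ocn-EV. For all of them but Spp1, which was highest in All-EV, the order was All-EV, Prx1-EV, Ocn-EV; Ibsp (195 and 948) and Fgfr2 (40.1 and 131.5) show wide gaps between Prx1-EV and Ocn-EV and Runx2 (254 and 290) a narrow one.

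Growth factor pathways that act on stromal cells were mostly on the Ocn-EV side. Of 25 IGF and FGF pathway genes, 17 passed the filter with a median of 0.30, and 4 were higher with Ocn-EV by at least 1.5-fold and 0 lower. The receptor Fgfr2, needed for osteoblast growth, had 0 reads in All-EV and stood at 131.5 in Ocn-EV and 40.1 in Prx1-EV (1.69 [1.22 to 2.23]). Fgf7, a ligand of one Fgfr2 splice form, stood at 294, 177 and 56.6 with Ocn-EV, Prx1-EV and All-EV (0.73 [0.47 to 1.00]). Dusp6, a phosphatase induced by FGF signalling, stood at 996, 652 and 790 (0.61 [0.47 to 0.75]). Igfbp5, an IGF-binding protein stored in bone matrix, stood at 1195, 600 and 73.6 (0.99 [0.86 to 1.13]). The ligand Igf1 was slightly lower with Ocn-EV (-0.17). Irs1, an adaptor of the insulin and IGF receptors outside this list, stood at 92.2, 39.3 and 26.03 (1.21 [0.70 to 1.78]). It too passed the filter only through Ocn-EV.

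Of 26 Wnt pathway genes, 9 passed the filter with a median of 0.42, which was 0.086 with a filter of 200. Rspo2, a secreted amplifier of Wnt signalling, stood at 206 with Ocn-EV, 85.5 with Prx1-EV and 14.7 with All-EV (1.26 [0.91 to 1.63]), and was the only one at least 1.5-fold apart. The Wnt target Ccn4 (WISP1) was at 0.55 [0.28 to 0.83] and the Wnt inhibitor Dkk2 at -0.40 [-0.55 to -0.25]. Ccn5 (WISP2), a secreted relative of Ccn4, stood at 452, 126 and 22.6 (1.84 [1.57 to 2.13]), the fourth highest ratio. Of 31 TGF-beta and BMP pathway genes, 21 passed with a median of 0.18, 0 were at least 1.5-fold apart, and the interval lay above equal levels for 11 and below for 2. Id1 (0.54 [0.28 to 0.80]) and Id3 (0.53 [0.39 to 0.67]), direct targets of BMP signalling, were the farthest apart.

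Some markers of stromal progenitors were higher with Ocn-EV. Of 24, 15 passed with a median of 0.12 (0.33 with a filter of 200), and the interval lay above equal levels for 7 and below for 0. It held equal levels for 8, among them the 4 with a ratio below 0: Ebf1 (-0.16), Mcam (-0.15), Nt5e (-0.07) and Grem1 (-0.05). Prrx1, the limb mesenchyme factor whose promoter drives Prx1-Cre, stood at 715.5 with Ocn-EV, 522 with Prx1-EV and 303 with All-EV (0.46 [0.30 to 0.62]). The niche chemokine Cxcl12 stood at 976, 709 and 463 (0.46 [0.32 to 0.60]), the mural receptor Pdgfrb at 539.5, 379 and 129 (0.51 [0.32 to 0.70]), and Ly6a (Sca-1) at 363, 238 and 182 (0.61 [0.38 to 0.84]). Contractile genes, 20 of 21 at the filter, had a median of 0.10 and 0 members at least 1.5-fold higher. Of these, 16 had a ratio above 0, and the interval lay above equal levels for 11 and below for 2. Des (desmin), a filament protein of muscle and mural cells, stood at 70.4, 135 and 32.8 and was lower with Ocn-EV (-0.93 [-1.37 to -0.52]). All 18 YAP and TAZ target genes passed, with a median of 0.09. Of these, 14 had a ratio above 0, and the interval lay above equal levels for 6 and below for 1. F3 (tissue factor) was the one at least 1.5-fold lower (-0.62 [-0.90 to -0.35]).

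Macrophage genes split. Of 27 macrophage markers 25 passed the filter, with a median of 0.10. The interval lay above equal levels for 16 and below for 3, and 4 were higher with Ocn-EV by at least 1.5-fold. Cx3cr1, the fractalkine receptor, stood at 187 with Ocn-EV, 55.0 with Prx1-EV and 23.8 with All-EV (1.75 [1.35 to 2.21]). The haemoglobin scavenger receptor Cd163 stood at 165, 65.4 and 11.3 (1.32 [0.93 to 1.75]). Both were low in All-EV and highest with Ocn-EV. C1qa, a chain of complement C1q, stood at 5730, 3533 and 2568 (0.70 [0.64 to 0.76]), and the LPS co-receptor Cd14 at 1976, 1305 and 2342 (0.60 [0.50 to 0.70]). Lysozyme (Lyz2) stood at 51741, 40548 and 140306 (0.35 [0.33 to 0.37]). The pan-macrophage marker Adgre1 (F4/80) was near level, at 12306, 11472 and 20031 (0.10 [0.07 to 0.14]), while the lysosomal marker Cd68 (-0.17 [-0.19 to -0.15]) and the protease Ctss (-0.13 [-0.15 to -0.11]) were lower with Ocn-EV. Trem1, an amplifying receptor of myeloid cells outside this list, stood at 78.7, 23.6 and 53.2 (1.70 [1.09 to 2.43]). Stab1, a scavenger receptor of tissue macrophages, stood at 17936, 13006 and 6390 (0.46 [0.43 to 0.50]).

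Complement genes, 13 of 17 at the filter, had a median of 0.39, with 9 ratios above 0 and 4 below. The interval lay above equal levels for 8 and below for 2. C3ar1 held most reads, 35.3% of the list's reads with Ocn-EV and 44.3% with Prx1-EV. C1qb (0.49) and C1qc (0.45) lay beside C1qa, and the C1 inhibitor Serping1 stood at 299, 167 and 86.0 with Ocn-EV, Prx1-EV and All-EV (0.84 [0.58 to 1.12]). The integrin Itgax was lower (-0.30 [-0.40 to -0.20]). Cfb, at 26.9, 39.3 and 324 (-0.53 [-1.30 to 0.18]), passed the filter only through All-EV.

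Osteoclast genes were on the Prx1-EV side, by small amounts. Of 16 markers of the bone-resorbing cell, 11 passed with a median of -0.17, 9 had a ratio below 0, and the interval lay below equal levels for 6 and above for 0. Ctsk, the collagen-degrading protease of osteoclasts, stood at 843 with Ocn-EV, 967.5 with Prx1-EV and 4185 with All-EV (-0.20 [-0.33 to -0.07]). Atp6v0d2, a proton pump subunit, stood at 8880, 10254 and 9249 (-0.21 [-0.25 to -0.17]). The fusion gene Dcstamp and the calcitonin receptor Calcr had 0 reads with both Ocn-EV and Prx1-EV. None of the 11 was at least 1.5-fold apart. Among 12 genes that regulate osteoclasts, 7 passed, and Ccl9, a chemokine that draws their precursors, stood at 1523, 746 and 1680.5 (1.03 [0.91 to 1.15]).

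**Figure D3:**
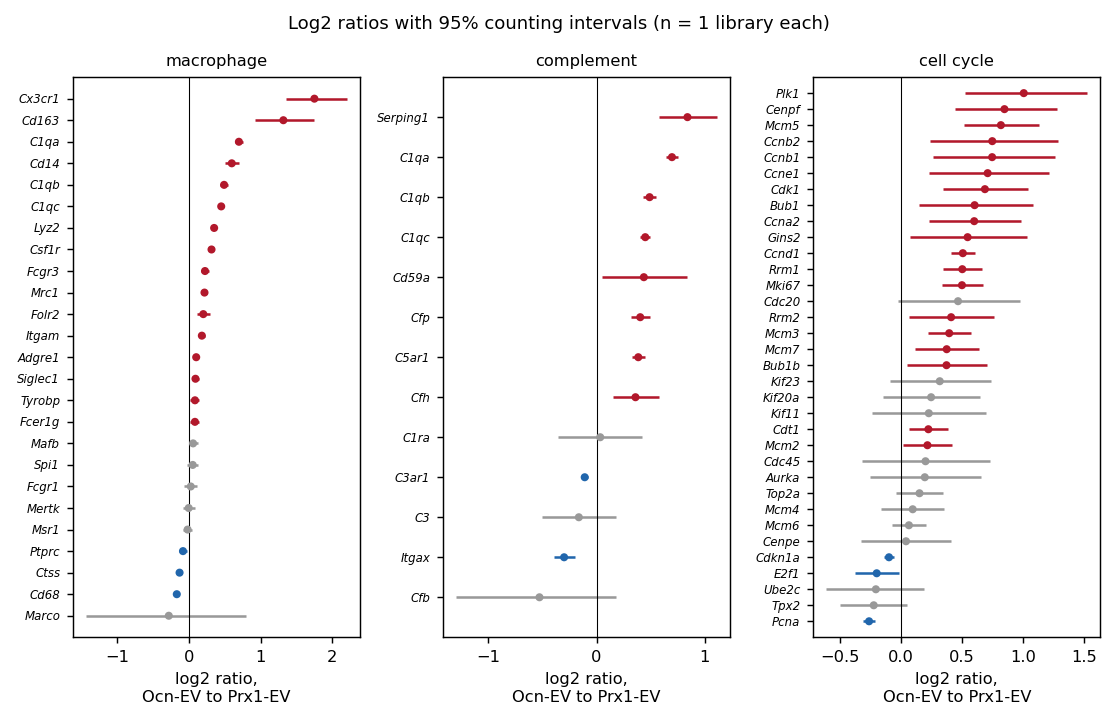
Log2 ratio of Ocn-EV to Prx1-EV for each macrophage, complement and cell cycle gene at the filter, with its 95% counting interval as a bar (1 library each). Red marks an interval above equal levels, blue one below and grey one that holds them; Cx3cr1 (1.75), Serping1 (0.84) and Plk1 (1.01) end the upper side of the panels.

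Cell cycle genes were mostly higher with Ocn-EV. Of 40 cell cycle genes, 34 passed with a median of 0.37, 29 had a ratio above 0, and 9 were at least 1.5-fold higher and 0 lower. The interval lay above equal levels for 19 and below for 3. Plk1 stood at 97.3 with Ocn-EV, 48.0 with Prx1-EV and 74.7 with All-EV (1.01 [0.53 to 1.53]). Mki67, the proliferation antigen, stood at 660, 467 and 631 (0.50 [0.33 to 0.67]). Cenpf of the kinetochore (0.85), the replication helicase subunit Mcm5 (0.82) and the mitotic cyclins Ccnb1 and Ccnb2 (0.75 each) were on the same side. For Plk1 and Mki67 the Prx1-EV library was the lowest of the 3, All-EV included. The replication clamp Pcna (-0.26 [-0.32 to -0.21]) and E2f1 (-0.20 [-0.38 to -0.02]) went the other way. These are genes of low level, and among members with a mean of at least 200 the median was 0.18.

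Genes of the response to low oxygen were lower with Ocn-EV, nearly all of them and each by little. All 35 hypoxia and glycolysis genes passed the filter, with a median of -0.12. A ratio below 0 was found for 33 of them, and the interval lay below equal levels for 29 and above for 1, against 20.3% and 15.8% of all genes. The list had a median level of 7798, in the highest quintile, where intervals are narrow and the median of all genes was -0.04. The shares of all genes are thus not a like-for-like background for it. None was 1.5-fold apart. Ero1a, the oxidase that forms disulfide bonds in the endoplasmic reticulum, stood at 9055 with Ocn-EV, 12376 with Prx1-EV and 30458 with All-EV (-0.45 [-0.49 to -0.41]). Hk2, the hexokinase that starts glycolysis, stood at 6395, 7689 and 10151 (-0.27 [-0.31 to -0.22]). Egln1, the oxygen sensor that marks hypoxia-inducible factors for destruction, stood at 2855, 3442 and 3419 (-0.27 [-0.34 to -0.20]), and Pfkfb3, an activator of glycolysis, at 4788, 5812 and 4518 (-0.28 [-0.33 to -0.23]). Prx1-EV lay above Ocn-EV for each, while All-EV was highest for Ero1a and Hk2 and lowest for Pfkfb3. The exceptions were Pfkfb4 (0.35 [0.18 to 0.51]) and the carbonic anhydrase Car9 (0.29 [-0.03 to 0.61]). The oxygen setting was the same for both cultures. The median over members was -0.07 after the trend on mean level was removed and -0.08 with libraries scaled to equal totals.

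The 250 bases before the start sites of 3 of these genes, the most lowered members with a single RefSeq start and a match, show where the letters ACGTG lie. ACGTG is one form of the core that hypoxia-inducible factors bind, and it is also part of CACGTG, the E-box of other factors. Capitals mark ACGTG or, where it lies on the other strand, CACGT. The windows (RefSeq, GRCm38.p6, all minus strand) are chr14:45318573-45318822 for Ero1a, chr8:124949255-124949504 for Egln1 and chr6:82774455-82774704 for Hk2.
Ero1a: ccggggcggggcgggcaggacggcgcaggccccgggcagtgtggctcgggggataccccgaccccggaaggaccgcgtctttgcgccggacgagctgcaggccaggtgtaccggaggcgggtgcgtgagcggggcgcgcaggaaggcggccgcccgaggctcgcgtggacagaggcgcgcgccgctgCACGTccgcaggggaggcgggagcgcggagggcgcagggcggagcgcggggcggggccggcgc
Egln1: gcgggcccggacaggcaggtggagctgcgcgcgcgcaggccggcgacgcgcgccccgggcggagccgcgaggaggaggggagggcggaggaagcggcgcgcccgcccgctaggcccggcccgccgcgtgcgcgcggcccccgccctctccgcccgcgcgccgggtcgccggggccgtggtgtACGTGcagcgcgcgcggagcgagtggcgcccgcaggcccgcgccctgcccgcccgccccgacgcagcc
Hk2: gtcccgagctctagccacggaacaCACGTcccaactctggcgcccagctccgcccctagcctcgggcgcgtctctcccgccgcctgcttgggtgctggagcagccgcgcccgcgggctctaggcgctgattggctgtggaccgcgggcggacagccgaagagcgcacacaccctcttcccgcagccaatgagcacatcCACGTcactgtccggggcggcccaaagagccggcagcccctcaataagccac
The match began 63 bases before the start in Ero1a, 68 in Egln1, and 226 and 52 in Hk2. The letters, on either strand and in any start window of a gene, were found for 18 of the 32 hypoxia and glycolysis genes with a promoter sequence (56.25%). They were found for 25.9% of the 8843 such genes at the filter and for 18.5% of all 27025 such genes. Their presence describes the sequence of these genes and its relation to the size of the ratios was not tested.

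The stress responses of the endoplasmic reticulum and of amino acid shortage were on the same side. Of 32 genes of the unfolded protein response and of ATF4, 31 passed with a median of -0.17. A ratio below 0 was found for 27, and the interval lay below equal levels for 19 and above for 2. The median level of this list was 1639, in the highest quintile. Its median ratio was -0.13 with the trend on mean level removed. Trib3, a pseudokinase induced by ATF4, stood at 953 with Ocn-EV, 1438 with Prx1-EV and 2527 with All-EV (-0.59 [-0.71 to -0.48]) and was the one at least 1.5-fold lower. Asparagine synthetase Asns (-0.41 [-0.54 to -0.27]), the amino acid transporter Slc7a5 (-0.40 [-0.55 to -0.26]), the folate enzyme Mthfd2 (-0.32 [-0.42 to -0.23]) and Atf4 itself (-0.27 [-0.32 to -0.21]) followed. The chaperone Hspa5 (BiP) stood at 25518, 30171 and 40870 (-0.24 [-0.27 to -0.22]). The lipoprotein receptor Vldlr (0.28) and Cebpb (0.26) were higher. Lysosomal genes, 27 of 27 at the filter, had a median of -0.09, with 24 ratios below 0. Their interval lay below equal levels for 22, against 20.3% of all genes. Their median level was 13501, in the highest quintile, and no genes of like level were set beside them. Genes of vesicle formation and cargo, 20 of 23, had a median of -0.06, with 8 intervals below equal levels and 0 above. Their median level was 1652, in the highest quintile, where the median of all genes was -0.04. With the trend on mean level removed, the median of these vesicle genes was -0.02. Among the 500 genes of highest level, those lowest with Ocn-EV also included Azin1, a regulator of polyamine synthesis (-0.38), the creatine carrier Slc6a8 (-0.37), the checkpoint ligand Cd274 (-0.36) and lipoprotein lipase Lpl (-0.33).

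**Figure D4:**
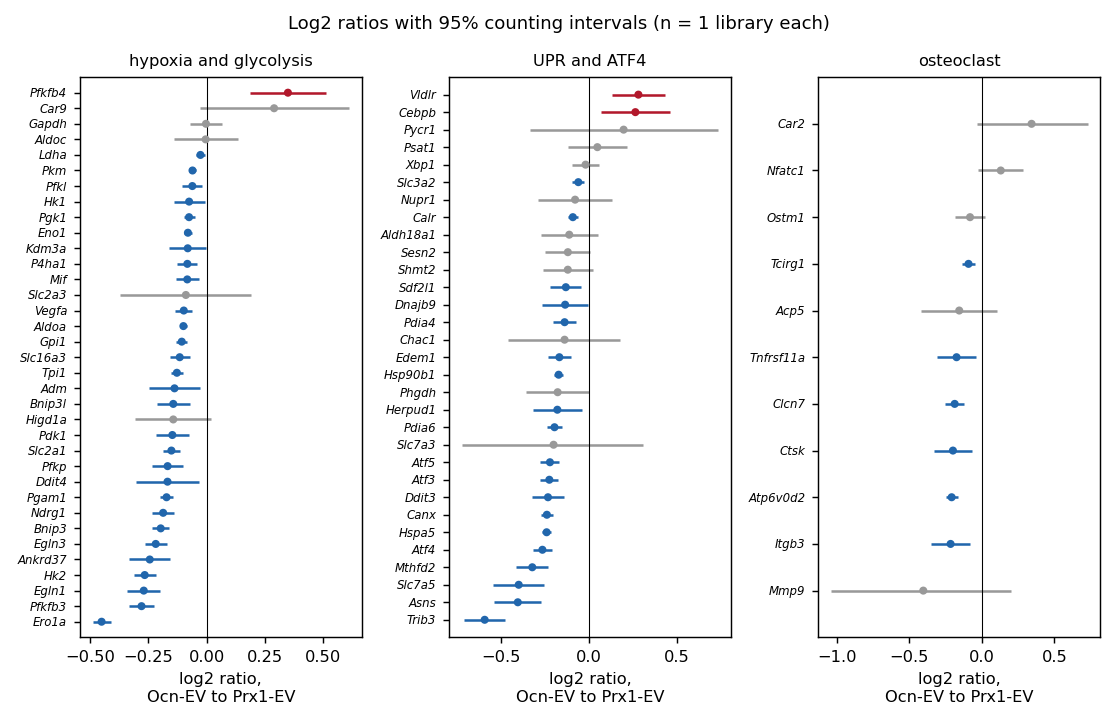
Log2 ratio of Ocn-EV to Prx1-EV for each hypoxia and glycolysis, unfolded protein and ATF4, and osteoclast gene at the filter, with its 95% counting interval as a bar (1 library each). Blue marks an interval below equal levels (29, 19 and 6 genes), red one above (1, 2 and 0) and grey one that holds them; most members lie a little to the left of 0.

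Interferon-stimulated genes lay mostly on the Ocn-EV side by small amounts, and NF-kB cytokines on neither. Of 45 interferon-stimulated genes measured, 39 passed with a median of 0.19, 31 above 0, and the interval lay above equal levels for 22 and below for 1. The GTPase Gbp7 was the only one at least 1.5-fold higher (0.70 [0.38 to 1.04]). Xaf1 (0.57) and the ubiquitin-like modifier Isg15 (0.54) were next, and Ifit2, which binds foreign RNA, stood at 1356, 1146 and 137 (0.24 [0.13 to 0.35]). Of 33 NF-kB cytokines and acute-phase genes, 22 passed with a median of 0.00. Saa3, an acute-phase protein made by macrophages and stromal cells, stood at 4.14 with Ocn-EV, 34.9 with Prx1-EV and 1538 with All-EV (-2.80 [-5.02 to -1.61]). It rested on 4 and 40 reads, passed the filter only through All-EV, and was the lowest ratio of the comparison. The chemokine Ccl5, at 4.14, 11.3 and 260 (-1.26 [-3.53 to 0.24]), also passed only through All-EV, and its interval holds equal levels. Cxcl3 had 205 in All-EV and 0 with both Ocn-EV and Prx1-EV. Its ratio of 0 came from the pseudocount alone, and it was counted among the 22 and in their median. Antigen presentation genes, 17 of 21, had a median of -0.07, with 2 intervals above equal levels and 5 below. Over all genes the shares above and below were 15.8% and 20.3%.

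Ribosomal and respiratory chain genes were near equal levels. Of 77 cytoplasmic ribosomal protein genes, 76 passed with a median of 0.00, ratios between -0.10 and 0.13, and intervals above equal levels for 7 and below for 8. Of 35 nuclear genes of oxidative phosphorylation, 33 passed with a median of 0.02, 3 intervals above and 2 below. NRF2 target genes, 22 of 23, had a median of -0.02, a sign that turned with libraries scaled to equal totals (0.01). Their interval lay below equal levels for 9 and above for 2, and Gsta3, a glutathione transferase, was the one at least 1.5-fold lower (146, 222 and 1307, -0.60 [-0.91 to -0.31]).

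**Figure D5:**
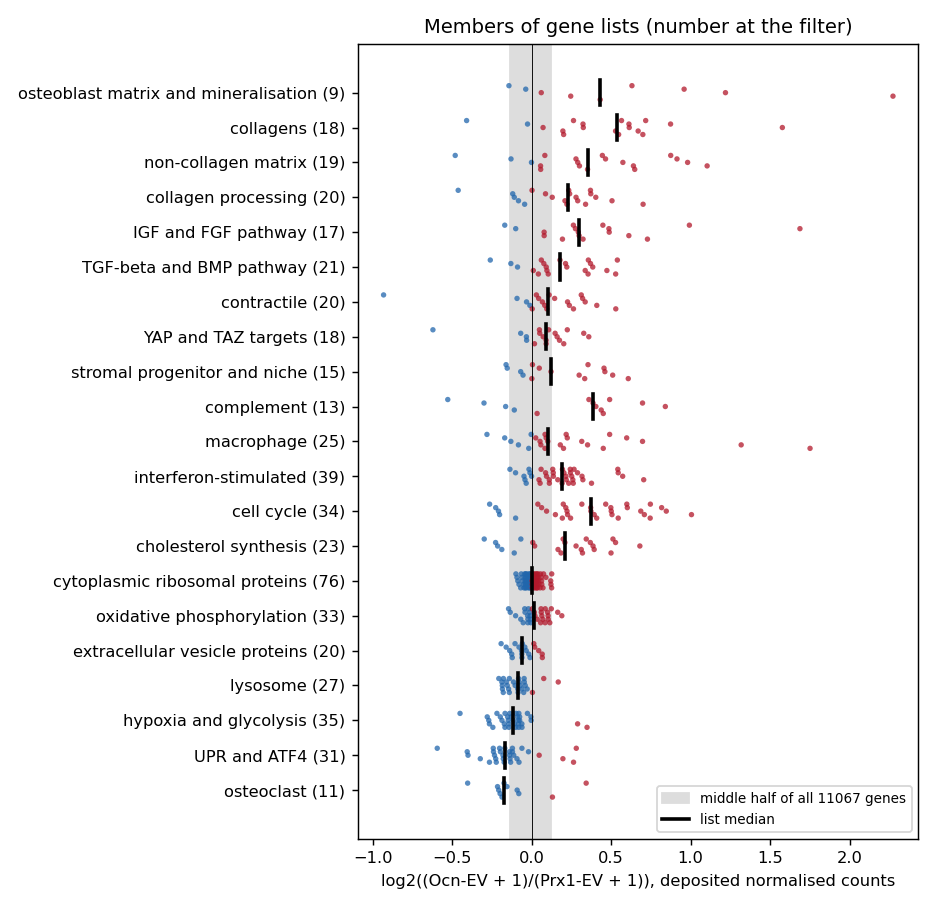
Log2 ratio of Ocn-EV to Prx1-EV for the members at the filter of 21 gene lists (1 point per gene, red above 0 and blue below), with the list median as a black bar and the interquartile range of all 11067 genes (-0.14 to 0.12) in grey. Medians of the collagens (0.54), bone matrix (0.43), complement (0.39) and cell cycle (0.37) lists lie farthest right of that range. Also right of it are non-collagen matrix (0.35), IGF and FGF (0.30), collagen processing (0.23), cholesterol synthesis (0.21), interferon-stimulated (0.19) and TGF-beta and BMP (0.18). Medians of the unfolded protein and ATF4 (-0.17) and osteoclast (-0.17) lists lie left of it.

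The remaining wide ratios belonged to genes of several roles. Higher with Ocn-EV were the hyaluronan-degrading Cemip, at 196 with Ocn-EV, 61.9 with Prx1-EV and 26.03 with All-EV (1.64 [1.26 to 2.07]), and Islr, a stromal leucine-rich protein, at 147, 60.2 and 22.6 (1.27 [0.86 to 1.72]). Gzme, a granzyme (84.9, 30.5 and 95.1, 1.45 [0.89 to 2.09]), the X-linked protocadherin Pcdh19 (1.22), the acyl-CoA hydrolase Acot1 (1.20), Nxpe5 (1.32) and Znrd1as (1.45), an antisense gene whose reads cannot be told from those of its partner here, were also among the 20 highest. On the Prx1-EV side the myeloid receptor gene Cd300ld3 stood at 37.3, 126 and 65.6 with Ocn-EV, Prx1-EV and All-EV (-1.73 [-2.32 to -1.22]), the phosphatase Dusp18 at 39.3, 107 and 66.8 (-1.42 [-2.01 to -0.91]), and the nuclear pore gene Nup210 at 32.1, 77.6 and 48.7 (-1.25 [-1.91 to -0.67]). Bbs10, a chaperonin-like gene of cilia (-1.28), the actin regulator Shroom4 (-1.22), Fam110c (-1.15), the NKG2D ligand Raet1e (-1.13), the kinase Cdk15 (-1.13), the tRNA enzyme Dus4l (-1.09), the fatty acid transporter Slc27a6 (-1.08), Fam78b (-1.07), Zfp953 (-1.07) and Wdr89 (-1.05) were also among the 20 lowest. Few reads lay behind these ratios. Examples in the Ocn-EV and Prx1-EV libraries were 189 and 71 for Cemip, 38 and 123 for Dusp18, and 31 and 89 for Nup210. Slc27a6 rested on 13 and 34 reads and Fam110c on 20 and 54. Slc27a6 stood at 13.5, 29.7 and 252 with Ocn-EV, Prx1-EV and All-EV, and Fam110c at 20.7, 47.1 and 101. Slc27a6 and Fam110c were thus below the filter level in both compared libraries and passed only through All-EV. Nup210 and Shroom4 were above the filter level in Prx1-EV alone.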

How the data were processed

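Messenger RNA was sequenced from 3 culture libraries, of which the Ocn-EV and Prx1-EV libraries were compared and groups were read from the sample labels. The deposited table gives 1 signal value per gene and library, counts that the authors normalised. Dividing by what 1 read is worth (1.04 in Ocn-EV and 0.872 in Prx1-EV) gave whole reads for 100% of values at a tolerance of 1e-06. Per the submitters' processing notes, HISAT2 2.2.1 was among the tools, with featureCounts 2.0.3, Trimmomatic 0.38.1, FastQC 0.74 and DESeq2 2.11.40.8, and mm10 was the build. No source used here states if strand entered the counting, so overlapping, antisense and near-identical genes are uncertain. Per the labels, libraries were made from 100 ng of RNA and read as 150-base pairs.

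From these values, computed here with Python 3.11.15, scipy 1.17.1 and R 4.3.3, came log2((Ocn-EV + 1)/(Prx1-EV + 1)) for genes with a mean of at least 50 over 3 libraries. The pseudocount of 1 pulls ratios of low genes toward 0. Counting intervals (95%) are exact conditional binomial (Clopper-Pearson) intervals of the read ratio, and shares of reads carry exact binomial ones. Both cover counting error only, since no molecular identifiers tell independent molecules from copies. A count of 0 allows up to 3 reads. Symbols and positions came from RefSeq (GRCm38.p6, the build of mm10) and matched 25275 of 27179 identifiers, and 89 genes at the filter had no symbol. Of the genes at the filter, 8843 had a symbol and a promoter sequence.

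Lists numbered 44, and 35 had at least 5 members at the filter. Named were the 20 highest and 20 lowest ratios, the 10 highest and 10 lowest among the 500 genes of highest level, up to 4 members of each list and direction that were at least 1.25-fold apart, and 19 fixed genes. Other list members, and the Y-linked genes, were chosen after their values were seen. The comparison, the lists and the rule were chosen with earlier results of these data known. Alternatives were pseudocounts of 0.5 and 10, filters of none, 10 and 200, libraries scaled to equal totals, TMM factors (edgeR 4.0.16) and removal of a trend on transcript length and GC content (available for 97.6% of genes). Removal of a trend on mean level, and an exact binomial comparison of the reads with Benjamini-Hochberg adjustment, were chosen after seeing the data. Calculations were tested on simulated data.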

Additional observations from a re-analysis of the deposited data

How the results depend on the processing

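With 1 library per group no library could be left out and no comparison had a replicate check. No paired analysis was possible because the groups hold 1 library each. The number of genes past a fold moved with the filter. Without a filter, 1698 genes were higher with Ocn-EV by at least 2-fold and 971 with Prx1-EV, and 2630 and 2082 were at least 1.5-fold higher. With a filter of 10 these counts were 280, 149, 843 and 511, and with a filter of 200 they were 6, 2, 58 and 18. A pseudocount of 10 left 9 genes higher with Prx1-EV by at least 2-fold. Of the list medians under an alternative, 308 kept their place within the counting width of their members, 6 moved and 1 reversed. The bone matrix list had 0.82 without a filter. The stromal progenitor list had 0.32 without a filter and 0.33 with a filter of 200, and the Wnt list 0.17 and 0.086. The adipocyte list had 0.00 without a filter and reversed to -0.063 with a filter of 200. Spp1 reversed to 0.022 with the trend on mean level removed. Without the 10 genes with most reads, collagens took 0.858% of reads with Ocn-EV and 0.579% with Prx1-EV, and macrophage genes 1.66% and 1.48%. In All-EV these shares were 0.155% for collagens and 1.32% for macrophage genes. Equal totals moved the median of all genes by 0.03. Of genes at least 1.5-fold apart, 63.3% were higher with Ocn-EV as reported, 71.2% with equal totals, 76.3% with a filter of 200, 55.8% without a filter and 54.3% with the trend on mean level removed. The exact binomial comparison with adjustment separated 2840 genes, against 3988 by counting interval. The depth limits ratios of genes near the filter, whose intervals are wide.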

Other observations

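Sterol synthesis genes lay on the Ocn-EV side. Of 24 genes, 23 passed the filter with a median log2 ratio of 0.21, and the counting interval lay above equal levels for 11 and below for 2. Farnesyl diphosphate synthase Fdps stood at 221 with Ocn-EV, 153 with Prx1-EV and 161 with All-EV (0.53 [0.24 to 0.83]), and the sterol carrier Stard4 at 258, 181 and 136 (0.51 [0.24 to 0.79]). Fatty acid synthesis genes had a median of -0.02, and the elongase Elovl6 was the one at least 1.5-fold higher (0.71).

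All 15 heat shock genes passed, with a median of 0.06, and 3 were higher with Ocn-EV by at least 1.5-fold. The inducible HSP70 genes Hspa1a and Hspa1b are near-identical, so their reads may have been split between them. Their sum was 1254 with Ocn-EV, 721 with Prx1-EV and 217 with All-EV (0.80). The small heat shock protein Cryab was at 0.68 [0.32 to 1.04]. The early response genes, 19 of 22 at the filter, had a median of 0.00. Nr4a1 (0.54 [0.21 to 0.89]), Egr1 (0.47 [0.30 to 0.64]) and Fos (0.42 [0.23 to 0.62]) were higher with Ocn-EV, and Egr2 (-0.38 [-0.54 to -0.23]) was lower.

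Adipocyte genes divided, with 11 of 19 at the filter, 6 intervals above equal levels and 5 below. The lipid carrier Fabp4 stood at 1084, 1530 and 1734 with Ocn-EV, Prx1-EV and All-EV (-0.50 [-0.61 to -0.39]) and the lipid droplet protein Plin4 at 95.3, 60.2 and 20.4 (0.65 [0.20 to 1.13]). Adipoq had 0 reads in all 3 libraries.

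Eif3j2 had the second highest ratio, at 293, 48.9 and 105 with Ocn-EV, Prx1-EV and All-EV (2.56 [2.17 to 3.02]). Its near-identical copy Eif3j1 went the other way, at 551, 1019 and 1123 (-0.89 [-1.04 to -0.74]). The sum of the pair was 844, 1068 and 1228 (-0.34); how the counting divided reads between the copies was not tested.

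Among the 20 lowest ratios were Ighg2b and Ighv6-6, immunoglobulin genes whose segments share sequence with others. Ighg2b stood at 130 with Ocn-EV, 322 with Prx1-EV and 191 with All-EV (-1.30 [-1.61 to -1.01]), and Ighv6-6 at 20.7, 54.1 and 108 (-1.34 [-2.19 to -0.64]). Of 12 B cell markers 3 passed the filter. Neutrophil markers passed for 2 of 13 genes, endothelial markers for 8 of 14 and megakaryocyte and platelet markers for 5 of 10. The endothelial markers divided, with 4 ratios above 0 and 4 below, and intervals above equal levels for 2 and below for 1. Egfl7 (0.77 [0.24 to 1.34]) and Plvap (0.55 [0.19 to 0.91]) were higher with Ocn-EV, and Vwf (-0.44), which platelets share, was lower. Egfl7 was above the filter level in Ocn-EV alone.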
